A study of Mus musculus with 6 samples.

Results

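The nuclear genes of oxidative phosphorylation were compared between 2 groups of 3 mouse arrays. The members were all genes with a single symbol of the families Nduf, Sdh, Uqcr, Cox4 to Cox8 and Atp5, plus Cyc1 and Cycs, each read from its probe set with the highest mean over the 6 arrays. This gave 91 of the 19937 genes with a single-symbol probe set. Of these, 75 are subunits in general use: 35 of complex I, 4 of complex II, 9 of complex III, 10 of complex IV and 17 of complex V. The other 16 are 7 assembly factors of complex I, 8 isoforms known from restricted tissues, and the carrier Cycs. Cox7c and Ndufb4 had no probe set with a single symbol, and the subunits encoded in mitochondrial DNA were not measured under the listed symbols (0 of 13); these were not analysed here.

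The group labelled RAG-/- holds thymocytes of Rag2-/- mice at the CD4-CD8- double-negative (DN) stage, an early step of T-cell development, in animals that cannot assemble antigen receptor genes. The group labelled DNTLX3+ holds sorted DN thymocytes of wild-type mice transduced with a pMSCV-GFP-TLX3 retrovirus and then grown for 4 to 5 weeks on irradiated OP9-DL1 stroma, which presents a Notch ligand, with IL-7 and Flt3L. TLX3 is a homeobox gene whose aberrant expression defines some T-cell acute leukaemias, and the labels call the groups Control and Tumoral. Thymi came from C57Bl/6 mice of 4 to 6 weeks, per the protocol shared by both groups. Genotype and virus differ together and cannot be told apart, since no array of cells given the empty vector was analysed here, and the labels do not settle if Rag2-/- cells went through culture. No label ties a replicate to its own mouse or culture, and p-values therefore rest on a spread that may be technical.

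In the inner mitochondrial membrane, complexes I and II pass electrons from NADH and succinate to ubiquinone, complex III passes them on to cytochrome c, and complex IV passes them to oxygen. Complexes I, III and IV pump protons, and complex V, the ATP synthase, makes ATP as the protons flow back. Most subunits are nuclear-encoded, a few core subunits of complexes I, III, IV and V are encoded in mitochondrial DNA, and dividing thymocytes draw on both glycolysis and respiration.

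Values are RMA log2 expression values, and every difference below is DNTLX3+ minus RAG-/- on that log2 scale, tested with limma over 28192 probe sets with Benjamini-Hochberg adjustment. A gene is said to rise or fall at an adjusted p under 0.05; a second rule also asks for a difference of at least 1. Tlx3 was at 5.40, 5.42 and 5.52 in RAG-/- replicates 1, 2 and 3 and at 7.09, 6.52 and 6.45 in DNTLX3+ (difference 1.24 ± 0.18 SE, limma adjusted p = 0.00103), though the insert's species is not stated in the labels. Of 12 T-lineage genes, 8 fell and 1 rose (mean level 10.78 to 10.85 in RAG-/- and 10.11 to 10.43 in DNTLX3+). All 12 myeloid and dendritic markers fell (mean level 8.63 to 8.85 in RAG-/- and 5.67 to 5.97 in DNTLX3+), as did 7 of 9 thymic epithelial markers (8.62 to 9.29 and 6.304 to 6.71) and 7 of 9 NK and cytotoxic markers (7.78 to 8.03 and 5.94 to 6.19). Of the latter 9, Gzma, a granzyme, rose (0.76, limma adjusted p = 0.00782). Of 6 proliferation genes, 4 rose and none fell (9.84 to 9.93 and 10.4 to 10.7). The part of these cell types and of proliferation in the differences below was not tested, and in bulk RNA fewer cells of a type cannot be told apart from less RNA per cell. The interquartile range of the arrays was 3.09 to 3.18 in RAG-/- and 2.47, 2.85 and 2.75 in DNTLX3+ replicates 1, 2 and 3, so the DNTLX3+ arrays had the narrower signal range.

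More subunits rose than fell in DNTLX3+ cells, and most rises were under 2-fold. Of the 75 subunits, 24 rose, 7 fell and 44 passed in neither direction (limma, adjusted p under 0.05). Of all 19937 genes, 23% rose and 19.4% fell, 42.4% in all, so the subunits were called about as often as genes in general (41.3%), with 32% risen and 9.33% fallen. Among the 10756 genes above the median level, where all 75 subunits lie, 15.1% rose and 30.6% fell (45.7% in either direction). The median difference was 0.16 over the subunits, 0.11 over all genes and -0.14 over the genes above the median level. Under the second rule 2 subunits were higher, Cox6a1 and Cyc1, and none was lower, where 1.44% and 5.07% of all genes and 1.37% and 7.62% of those above the median level were. The split of 24 and 7 moved with the scaling: it was 33 and 3 after quantile normalization was applied again, 31 and 4 after cyclic loess, and 20 and 7 after arrays were set to equal medians. It also moved with single arrays, to 19 and 12 without DNTLX3+ replicate 2, 16 and 3 without RAG-/- replicate 1, 19 and 2 without RAG-/- replicate 2 and 22 and 3 without DNTLX3+ replicate 3. The share of rises among the called subunits was thus 77.4% as deposited and 91.7%, 88.6% and 74.1% after these rescalings, and 61.3% without DNTLX3+ replicate 2. The subunits' median stood 0.050 above that of all genes as deposited, and below it without DNTLX3+ replicate 2 (-0.025) or RAG-/- replicate 3 (-0.013).

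**Figure D1:**
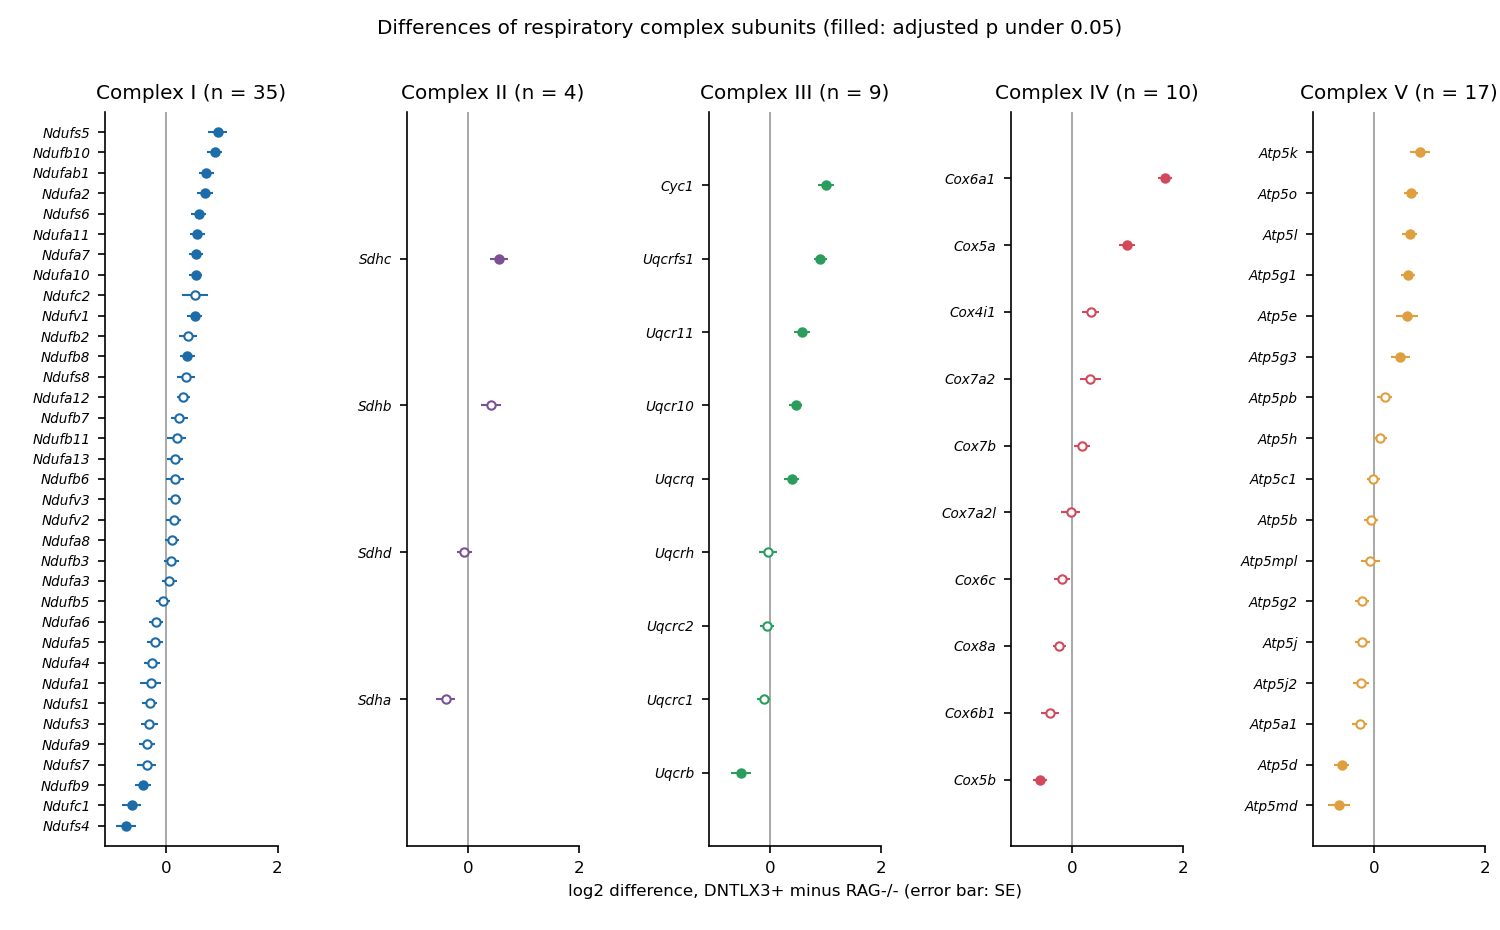
Log2 difference (DNTLX3+ minus RAG-/-, horizontal axis) of each of the 75 subunits, in a panel per complex and ordered by size, with bars for the SE; filled points passed an adjusted p under 0.05. Cox6a1 stands at 1.67 and Ndufs4 at -0.73, and complex III has 5 of its 9 subunits filled on the right.

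Promoter sequence is shown here for 5 members, since NRF1 and factors of the ETS family (GABP) are known regulators of respiratory genes. The NRF1 letters GCATGCGC were searched on both strands of the 250 bases before the RefSeq start. In 4 subunits and in Ndufaf4, an assembly factor, the letters occur on both strands at once and overlap in a palindrome of 10 bases. The first 4 sequences below are those subunits, and the last is Ndufs4, the subunit with the largest fall, which holds none of the motifs searched. Sequences are from RefSeq on GRCm38.p6, 5′ to 3′ on the gene's strand, with the palindrome and, in Cox6a1, the ETS letters CCGGAAG (here on the opposite strand) in capitals. The windows are chr5:115348959-115349208 (minus strand) for Cox6a1, chr5:108434400-108434649 (minus) for Atp5k, chr17:56717512-56717761 (plus) for Ndufa11, chr15:102671048-102671297 (minus) for Atp5g2 and chr13:114388095-114388344 (minus) for Ndufs4.
Cox6a1: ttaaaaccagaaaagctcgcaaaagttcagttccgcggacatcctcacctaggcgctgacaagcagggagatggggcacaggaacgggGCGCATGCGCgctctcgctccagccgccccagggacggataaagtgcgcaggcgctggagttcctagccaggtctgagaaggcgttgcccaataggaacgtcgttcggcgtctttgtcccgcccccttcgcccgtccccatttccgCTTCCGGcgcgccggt
Atp5k: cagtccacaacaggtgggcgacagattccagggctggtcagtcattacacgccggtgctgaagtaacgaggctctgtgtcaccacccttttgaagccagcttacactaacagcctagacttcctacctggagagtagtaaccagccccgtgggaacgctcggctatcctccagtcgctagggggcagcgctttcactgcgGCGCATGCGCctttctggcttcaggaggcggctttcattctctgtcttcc
Ndufa11: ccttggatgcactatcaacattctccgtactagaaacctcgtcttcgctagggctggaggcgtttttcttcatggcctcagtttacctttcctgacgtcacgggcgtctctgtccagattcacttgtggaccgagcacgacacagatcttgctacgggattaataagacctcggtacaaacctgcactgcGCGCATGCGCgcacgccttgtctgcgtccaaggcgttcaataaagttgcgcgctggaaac
Atp5g2: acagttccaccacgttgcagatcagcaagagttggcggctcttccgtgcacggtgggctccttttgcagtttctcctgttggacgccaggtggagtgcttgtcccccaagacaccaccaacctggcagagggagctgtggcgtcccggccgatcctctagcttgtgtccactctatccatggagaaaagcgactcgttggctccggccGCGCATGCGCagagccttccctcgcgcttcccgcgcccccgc
Ndufs4: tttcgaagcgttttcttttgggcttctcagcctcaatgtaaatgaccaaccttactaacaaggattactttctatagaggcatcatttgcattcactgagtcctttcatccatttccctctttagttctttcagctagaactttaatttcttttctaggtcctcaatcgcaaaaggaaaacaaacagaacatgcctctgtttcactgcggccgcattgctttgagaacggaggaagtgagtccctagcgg

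Counted from the RefSeq start, the palindrome begins at position -162 in Cox6a1, -50 in Atp5k, -60 in Ndufa11 and -42 in Atp5g2. Of these 4, Cox6a1, Atp5k and Ndufa11 rose and Atp5g2, by its brightest probe set, did not pass. That probe set is numbered among chromosome 7 genes. The Atp5g2 probe set numbered at the locus of the promoter shown, on chromosome 15, rose by 1.30 (limma adjusted p = 0.00034). A promoter was listed for 74 of the 91 members and 63 of the 75 subunits. The palindrome was in 6.35% of those subunits and in 1.21% of 17491 protein-coding genes, and GCATGCGC on either strand in 12.7% and 3.32%. CCGGAAG was in 19% of the subunits and 10.2% of protein-coding genes, and the YY1 letters AAGATGGCG in 1 subunit, Atp5j (1.59%, against 0.84% of protein-coding genes). By the call of the brightest probe set, the palindrome was in 3 of 20 subunits that rose, 1 of 38 that did not pass (Atp5g2) and 0 of 5 that fell. CCGGAAG was in 4, 8 and 0. A match of letters is a description of the window, on both strands, and not a measured site. Nrf1 itself fell, from 8.42 ± 0.076 to 7.87 ± 0.24 (SD, n = 3; difference -0.56, limma adjusted p = 0.0152), and Gabpa did not pass (-0.23). Nrf1 lost its call without RAG-/- replicate 1 (-0.56) or 3 (-0.52) and after quantile normalization was applied again (-0.36).

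Complex I, the NADH dehydrogenase, had 10 of 35 subunits higher and 3 lower (28.6% and 8.57%, against 23% and 19.4% of all genes). Its median difference was 0.16, and 0.085 without RAG-/- replicate 3, 0.092 without DNTLX3+ replicate 2 and up to 0.23 with another array left out. Its rises were in accessory subunits, which surround the catalytic core, with 1 exception. Ndufs5, an accessory subunit of the membrane arm, was at 8.26, 8.55 and 8.12 in RAG-/- and at 9.13, 9.53 and 9.06 in DNTLX3+. The groups did not overlap, and the difference was 0.93 ± 0.17 (SE, 1.9-fold, limma adjusted p = 0.00311). Ndufb10, also of the membrane arm, was at 7.37, 7.39 and 7.40 and then at 8.17, 8.50 and 8.11 (0.87 ± 0.14, adjusted p = 0.0016). Every DNTLX3+ array lay above every RAG-/- array for both genes. Ndufa2 (0.70), Ndufs6 (0.58), Ndufa11 (0.56), Ndufa7 (0.54), Ndufa10 (0.53), Ndufb8 (0.38) and, by its brightest probe set, Ndufab1 (0.72) rose too. Of these, Ndufa11 lost its call without RAG-/- replicate 1 (0.49, adjusted p = 0.0619) or 2 (0.53, adjusted p = 0.0511). Ndufb8 lost it without RAG-/- replicates 1, 2 or 3 (0.35, 0.38 and 0.41) or DNTLX3+ replicate 2 (0.28), after equal medians (0.32) and with the replicate number as a block (adjusted p = 0.0758).

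The 6 measured core subunits, which carry the flavin and iron-sulfur clusters or sit next to them, moved less uniformly. Ndufv1, which binds NADH and the flavin, rose by 0.51 ± 0.14 (8.87, 8.90 and 8.81 against 9.26, 9.61 and 9.25; limma adjusted p = 0.0167). It lost the call when RAG-/- replicate 1, 2 or 3 was left out, at 0.52, 0.53 and 0.49. The other 5 did not pass: Ndufs8 was at 0.35, Ndufv2 at 0.13, Ndufs1 at -0.30, Ndufs3 at -0.30 and Ndufs7 at -0.35. Ndufs8 passed after the quantile step (0.55) and after cyclic loess (0.52), and Ndufs1 and Ndufs7 passed as lower without DNTLX3+ replicate 2 (-0.41 and -0.52). The median of the core was -0.080 and that of the 29 accessory subunits 0.16, of which 9 rose and 3 fell.

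The falls in complex I were all accessory subunits. Ndufs4, whose loss in mice and humans causes a Leigh-like disease, was at 9.29, 9.47 and 9.14 in RAG-/- and at 8.24, 8.91 and 8.57 in DNTLX3+ (-0.73 ± 0.18 SE, limma adjusted p = 0.0116). The groups stayed apart, with DNTLX3+ replicate 2 the closest, and the call was lost without RAG-/- replicate 2 (-0.64). Ndufc1, at 8.76, 8.91 and 8.50 against 7.88, 8.42 and 8.01, fell by 0.62; it lost the call without RAG-/- replicate 1 (-0.60), RAG-/- replicate 2 (-0.53) or DNTLX3+ replicate 3 (-0.57) and after the quantile step (-0.42). Ndufb9 fell by 0.42 and was kept only without DNTLX3+ replicate 1 or 2 among the 6 arrays left out in turn, with values of -0.47, -0.35 and -0.45 without RAG-/- replicates 1, 2 and 3 and -0.32 without DNTLX3+ replicate 3. It also lost the call after the quantile step (-0.22), after cyclic loess (-0.25) and with the replicate number as a block.

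The dimmest and the brightest complex I probe sets, Ndufb3 and Ndufa4, did not pass. Ndufb3 was at 6.75, 6.75 and 6.54 against 6.67, 6.86 and 6.79 (0.094). Ndufa4, counted here by its symbol although its protein is now placed in complex IV, was at 10.6, 10.6 and 10.4 against 10.1, 10.5 and 10.2 (-0.25). In both genes the groups overlap.

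**Figure D2:**
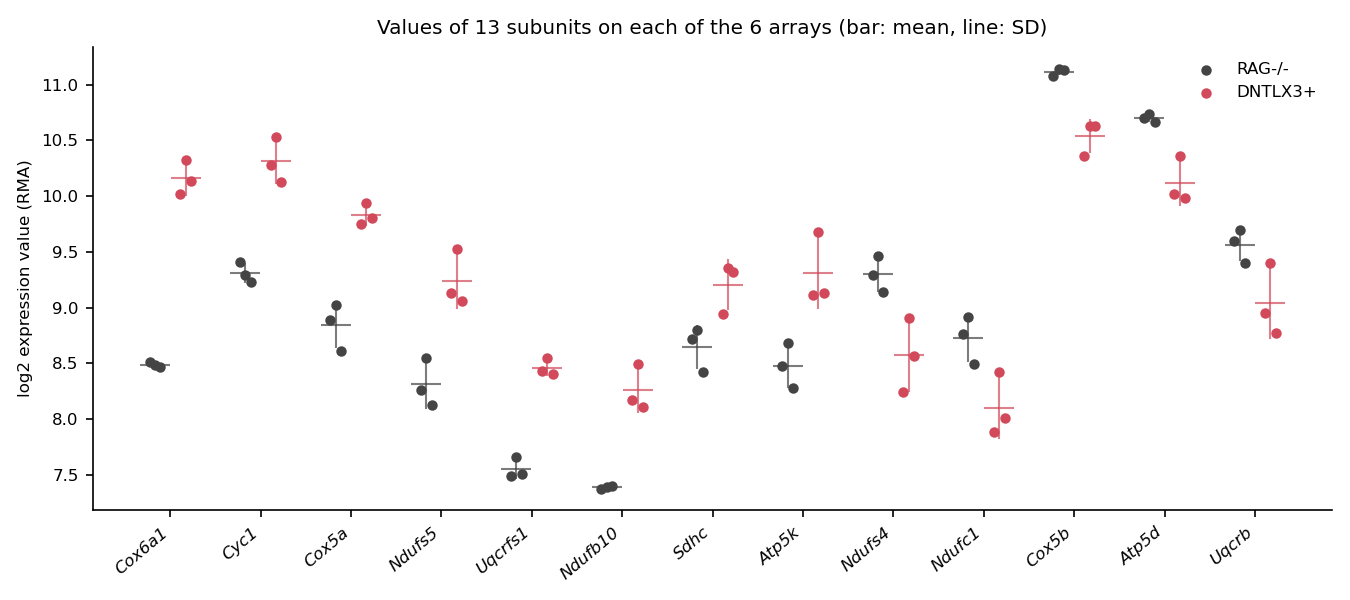
Log2 expression value (vertical axis) of 13 subunits on each of the 6 arrays, with RAG-/- in dark grey, DNTLX3+ in red, a bar for the mean and a line for the SD (n = 3). Cox6a1 stands near 8.49 on the RAG-/- arrays and between 10.0 and 10.3 on the DNTLX3+ arrays, while Cox5b stands between 11.08 and 11.14 and between 10.36 and 10.63.

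Complex II, succinate dehydrogenase, takes part in both the respiratory chain and the citric acid cycle. Of its 4 subunits, 1 rose (25%, against 23% of all genes). Sdhc, a membrane anchor, was at 8.72, 8.80 and 8.42 in RAG-/- and 8.94, 9.36 and 9.32 in DNTLX3+ (0.56 ± 0.16 SE, limma adjusted p = 0.0211). The groups did not overlap, but the call was lost without RAG-/- replicate 1 (0.60), RAG-/- replicate 3 (0.45), DNTLX3+ replicate 2 (0.48) or DNTLX3+ replicate 3 (0.50). Sdha, the flavoprotein that oxidises succinate, was at 10.61, 10.65 and 10.48 against 9.81, 10.5 and 10.3; it did not pass (-0.40, adjusted p = 0.0871), nor did Sdhb, the iron-sulfur subunit (0.41, adjusted p = 0.0933). Sdhb passed after the quantile step (0.60) and cyclic loess (0.58), and Sdha passed as lower without DNTLX3+ replicate 2 (-0.54). Sdhd, the other anchor, was at -0.064, so the 4 subunits lay on both sides of zero. The median was 0.17, and 0.013 without DNTLX3+ replicate 2.

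Complex III hands electrons from ubiquinol to cytochrome c. It had the largest median difference of the 5 complexes (0.39) under the deposited scaling and after each of the 3 rescalings. Of its 9 subunits, 5 rose and 1 fell (55.6% and 11.1%, against 23% and 19.4% of all genes). No test between complexes was made. The 2 nuclear-encoded redox subunits rose most. Cyc1, cytochrome c1, was at 9.41, 9.29 and 9.23 in RAG-/- and at 10.3, 10.5 and 10.1 in DNTLX3+, a difference of 1.00 ± 0.14 (SE, 2.00-fold, limma adjusted p = 0.000993). Its groups were well apart, but its difference lay at the second rule's limit: it missed that rule without RAG-/- replicate 2 or 3, without DNTLX3+ replicate 2, after equal medians and with array weights. Uqcrfs1, the Rieske iron-sulfur protein, was at 7.49, 7.66 and 7.51 and then at 8.43, 8.54 and 8.40 (0.91 ± 0.12, adjusted p = 0.000812).

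The small subunits Uqcr11 (0.57), Uqcr10 (0.46) and Uqcrq (0.39) rose as well. Uqcrq lost its call without RAG-/- replicate 1 (0.39) or 3 (0.30) or DNTLX3+ replicate 2 (0.35) or 3 (0.40), after equal medians (0.33) and with the replicate block (adjusted p = 0.062). Uqcr10, which had the dimmest probe set of the complex, at 7.80, 7.85 and 7.65 against 8.16, 8.21 and 8.29, lost its call without RAG-/- replicate 1 (0.48) or 3 (0.40). Uqcrb, which lies at the quinone site, went the other way, at 9.60, 9.70 and 9.40 against 8.95, 9.40 and 8.77 (-0.53 ± 0.18 SE, adjusted p = 0.0388). Its nearest arrays all but touched, at 9.40, and the call held in only 1 of the 6 fits with an array left out, that without DNTLX3+ replicate 2; the others gave -0.61 to -0.39. It was also lost after the quantile step and cyclic loess (-0.38 in each) and with the mean of its 3 probe sets (-0.37). The core proteins Uqcrc1 (-0.11) and Uqcrc2 (-0.054) and the hinge protein Uqcrh (-0.036) did not pass.

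Complex IV, cytochrome c oxidase, held the largest single rise. It had 2 of 10 nuclear subunits higher and 1 lower (20% and 10%, against 23% and 19.4% of all genes), with a median of 0.080. Cox6a1, the general isoform of a subunit that is known to tune the enzyme's activity, was at 8.51, 8.48 and 8.46 in RAG-/- and at 10.0, 10.3 and 10.1 in DNTLX3+. The difference of 1.67 ± 0.13 (SE, 3.19-fold, limma adjusted p = 7.44e-05) was many times the spread within either group. Cox6a1 met both rules under each of the 14 alternatives other than the choice of locus described below. Cox5a was at 8.89, 9.03 and 8.61 against 9.75, 9.94 and 9.80 (0.99 ± 0.14, 1.99-fold, adjusted p = 0.0011).

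Cox5b, the zinc-binding neighbour of Cox5a in the enzyme, fell. It was at 11.08, 11.14 and 11.13 in RAG-/- and at 10.36, 10.63 and 10.63 in DNTLX3+ (-0.58 ± 0.13 SE, 1.49-fold, adjusted p = 0.00727). The 2 genes thus moved apart, with no array of one group inside the range of the other in either case. Cox4i1, needed to assemble the enzyme, was at 0.34 (adjusted p = 0.0956) and Cox7a2 at 0.33; both passed as higher after the quantile step (0.44 and 0.54) and cyclic loess (0.47 and 0.51), Cox4i1 also without DNTLX3+ replicate 3 (0.46) and Cox7a2 without DNTLX3+ replicate 1 (0.49). Cox7b (0.18), Cox7a2l, which links complexes III and IV in supercomplexes (-0.023), Cox6c (-0.18 by its brightest probe set, 0.20 at its own locus), Cox8a (-0.23) and Cox6b1 (-0.39) did not pass, and Cox6b1 passed as lower without DNTLX3+ replicate 2 (-0.54). That same array decided the sign of the complex's median, which was -0.072 without it.

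Complex V, the ATP synthase, had 6 of 17 subunits higher and 2 lower (35.3% and 11.8%, against 23% and 19.4% of all genes). Its median was -0.0065 (0.076 after the quantile step, 0.068 after cyclic loess and -0.067 after equal medians). Of its catalytic head, the beta subunit Atp5b was at 12.0, 12.0 and 11.9 against 11.8, 12.0 and 12.0 (-0.046), and these arrays overlap. Atp5a1 (alpha, -0.25) and Atp5c1 (gamma, -0.0065) did not pass either. The other 2 head subunits moved in opposite directions. Atp5d, the delta subunit of the central stalk, fell: it was at 10.70, 10.73 and 10.66 against 10.02, 10.36 and 9.98 (-0.58 ± 0.14 SE, limma adjusted p = 0.0104). Atp5e, the epsilon subunit beside it, rose by 0.59 ± 0.20 (8.43, 8.57 and 8.16 against 8.60, 9.33 and 9.02; adjusted p = 0.0362). The Atp5e groups lay almost against each other, and among the fits with an array left out its call held only without DNTLX3+ replicate 1, with 0.42 to 0.69 in the other 5; it was also lost after equal medians (0.53).

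Among the 12 subunits of the membrane part and the peripheral stalk, 5 rose and 1 fell. Atp5k, subunit e of the dimer interface, was at 8.47, 8.68 and 8.28 in RAG-/- and at 9.11, 9.68 and 9.13 in DNTLX3+ (0.83 ± 0.18 SE, limma adjusted p = 0.00713). Atp5o, the stalk protein that confers sensitivity to oligomycin, was at 9.001, 9.05 and 8.86 against 9.57, 9.66 and 9.69 (0.67 ± 0.12, adjusted p = 0.00295). Both had groups that did not overlap. Atp5l, subunit g, rose by 0.64. Atp5g1 and Atp5g3, which encode the same mature subunit c of the rotor ring, rose by 0.62 and 0.48. The first rise is that of its brightest probe set, and at its own locus Atp5g1 was at 0.095 (adjusted p = 0.667) and did not pass. The second came with an adjusted p of 0.0480 and a call that held only without DNTLX3+ replicate 1 among the arrays left out (0.31 to 0.56 in the other 5). Atp5md, a small subunit of the dimer interface, fell by 0.62 by its brightest probe set (10.2, 10.4 and 9.87 against 9.48, 9.88 and 9.15), with DNTLX3+ replicate 2 inside the RAG-/- range. Its call was lost without RAG-/- replicate 1 (-0.60) or 2 (-0.52) and without DNTLX3+ replicate 1 (-0.61) or 3 (-0.45). The call was also lost after the quantile step, after cyclic loess and with the mean of its probe sets.

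Outside the general subunits, 4 members rose and none fell: 1 of 7 assembly factors, 2 of 8 restricted isoforms and the carrier Cycs. Of all genes, 23% rose and 19.4% fell. Ndufaf7, a methyltransferase needed for assembly of complex I, was at 7.44, 7.46 and 7.23 against 8.03, 8.22 and 8.06 (0.73 ± 0.13 SE, limma adjusted p = 0.00269). The other 6 assembly factors did not pass, from -0.31 (Ndufaf3) to 0.35 (Ndufaf4). Ndufa4l2, a paralog of Ndufa4 known to be induced by low oxygen, went from 5.73, 5.70 and 5.47, under the array medians of 6.22 to 6.25, to 6.61, 6.58 and 6.78 (1.02 ± 0.13, adjusted p = 0.00069). Its lower level may be background, so the size of this rise is one of deposited values. Cox6b2, the testis form of Cox6b1, rose by 0.67 and lost the call without RAG-/- replicate 3 (0.58). Cycs, cytochrome c, rose by 0.46 ± 0.16 (adjusted p = 0.0448); the call was lost without RAG-/- replicate 1 (0.45) or 3 (0.36), without DNTLX3+ replicate 2 (0.34), after equal medians (0.40) and with array weights (0.42).

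Side by side, the general isoform and its restricted paralogs gave these differences. Cox6a1 was at 1.67 and the muscle form Cox6a2 at 0.37 (adjusted p = 0.0555), which passed after the quantile step (0.47), after cyclic loess (0.40), after the filter on dim probe sets (0.37), with array weights (0.38) and without DNTLX3+ replicate 2 (0.49). Cox4i1 was at 0.34 and Cox4i2 at 0.22. Cox7a2 was at 0.33 and the muscle form Cox7a1 at -0.32; the latter passed as lower after the quantile step (-0.48), after cyclic loess (-0.54), with array weights (-0.47) and without DNTLX3+ replicate 1 (-0.49). Cox7b was at 0.18 and the testis form Cox7b2 at 0.45, from mean levels of 4.36 over the 6 arrays, and Cox7b2 passed without RAG-/- replicate 2 (0.62). Cox8a, at -0.23, had paralogs Cox8b and Cox8c at 0.18 and 0.22. Of the 8 restricted isoforms, 3 lay above all array medians by their mean over the 6 arrays, so most of these values may be background.

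Respiratory genes often have more than 1 probe set on this array, and these did not always move together. Of the 91 members, 18 (19.8%) have more than 1 single-symbol probe set, against 4.79% of all genes. The numbering of the probe sets follows the genome, so each was set against its neighbours: it was taken to lie at its gene's own locus where at least 3 of its 10 neighbours belong to genes within 2 Mb. This rule was chosen after the values were seen. Of 117 member probe sets, 26 are numbered elsewhere, and for 10 members (Atp5g1, Atp5g2, Atp5l, Atp5md, Atp5pb, Cox6c, Cox7b, Cycs, Ndufab1 and Ndufb11) the brightest is among them. What such probe sets measure was not tested, and for these genes the calls above are uncertain. With the own-locus probe set in place of the brightest, 24 subunits rose and 7 fell, as before, but 22 and 6 of them were the same genes.

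Atp5g2, also a gene of subunit c, shows how far probe sets can differ. Its brightest, with neighbours on chromosome 7, was at 11.0, 11.3 and 11.0 in RAG-/- and 10.8, 11.0 and 10.9 in DNTLX3+ (-0.21, limma adjusted p = 0.208). The one at its own locus on chromosome 15 was at 7.98, 8.25 and 7.89 against 9.43, 9.20 and 9.38 (1.30 ± 0.14 SE, adjusted p = 0.00034), and the one among chromosome 17 genes at 8.30, 8.62 and 8.33 against 9.93, 11.3 and 10.7 (2.25 ± 0.30, adjusted p = 0.000781). The first was lower on every DNTLX3+ array by a difference that did not pass, and the other 2 were higher on every DNTLX3+ array. Ndufab1, the mitochondrial acyl carrier protein, was the reverse case: its brightest probe set rose by 0.72, while that at its own locus fell by 1.28 ± 0.35 (7.99, 8.05 and 7.84 against 7.61, 5.94 and 6.47; adjusted p = 0.0164). The own-locus DNTLX3+ values spread widely, with replicate 1 nearest to RAG-/-.

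For Cycs the own-locus probe set was at 5.58 over the 6 arrays, under the medians, and its difference of 0.080 did not pass, while another probe set gave 1.20. Atp5g1 was at 0.095 and Atp5md at 0.14 by the own locus, where neither passed. Atp5l was at 0.97 there (adjusted p = 0.00115) and rose by both probe sets, while its mean over 5 probe sets (0.32) did not pass. Atp5pb, a stalk subunit, was at 0.19 by its brightest probe set, which did not pass, and at 0.37 by the own locus, which did (adjusted p = 0.0334).

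**Figure D3:**
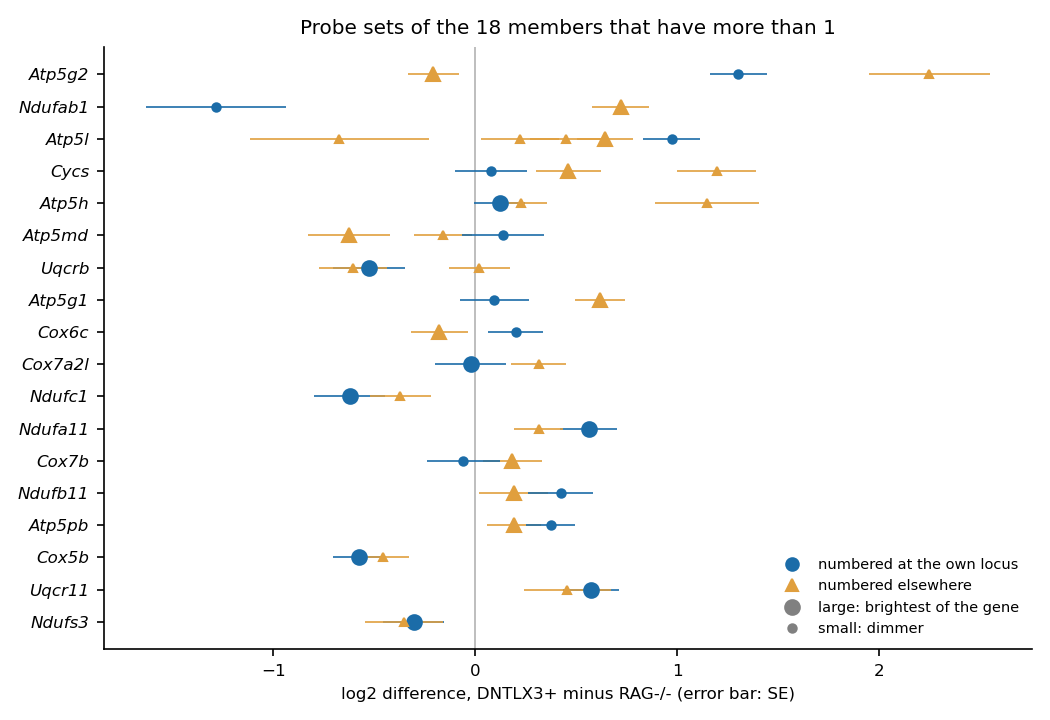
Log2 difference (DNTLX3+ minus RAG-/-, horizontal axis, bars for the SE) of every probe set of the 18 members with more than 1; blue circles are numbered at the gene's own locus, orange triangles elsewhere, and the large symbol is the brightest. For 8 members the probe sets lie on both sides of 0, widest in Atp5g2 (-0.21 to 2.25) and Ndufab1 (-1.28 to 0.72).

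The subunits' differences varied with their signal. Among the 25 subunits with the lowest mean signal (median 8.29) the median difference was 0.38 and 19 were above 0. Among the next 25 these were 0.18 and 16, and among the brightest 25 (median 10.3) they were -0.061 and 8. Spearman's rho between mean signal and difference was -0.34 across the 75 subunits, which share the same 6 arrays, and -0.093 across all genes above the median level. Signals of different probe sets do not rank transcripts by abundance. Beside genes of like signal, 19 of 26 subunits between 8 and 9 had a difference above 0, where 32.4% of genes did; between 9 and 10 it was 12 of 23 (genes 38.2%) and between 10 and 11 it was 6 of 16 (genes 41.4%). The median difference in these ranges was 0.37, 0.10 and -0.082 for subunits and -0.20, -0.15 and -0.087 for all genes. Over these ranges the subunits' median thus fell while that of all genes rose. The rise over all genes did not go on between 11 and 12, where the medians were -0.13 for subunits and -0.18 for all genes. There 0 of 4 subunits had a difference above 0 (genes 38.0%). The DNTLX3+ arrays had the narrower signal range, and its part in the subunits' pattern was not tested beyond the rescalings. Length of the gene differed as well: the members' median length was 7279 bases against 17742 for all genes, and among genes above the median level the shortest quintile had a median difference of 0.13 and the longest of -0.38. Of the 75 subunits, 32 are no longer than the limit of that shortest quintile; the part of length in their differences was not tested.

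**Figure D4:**
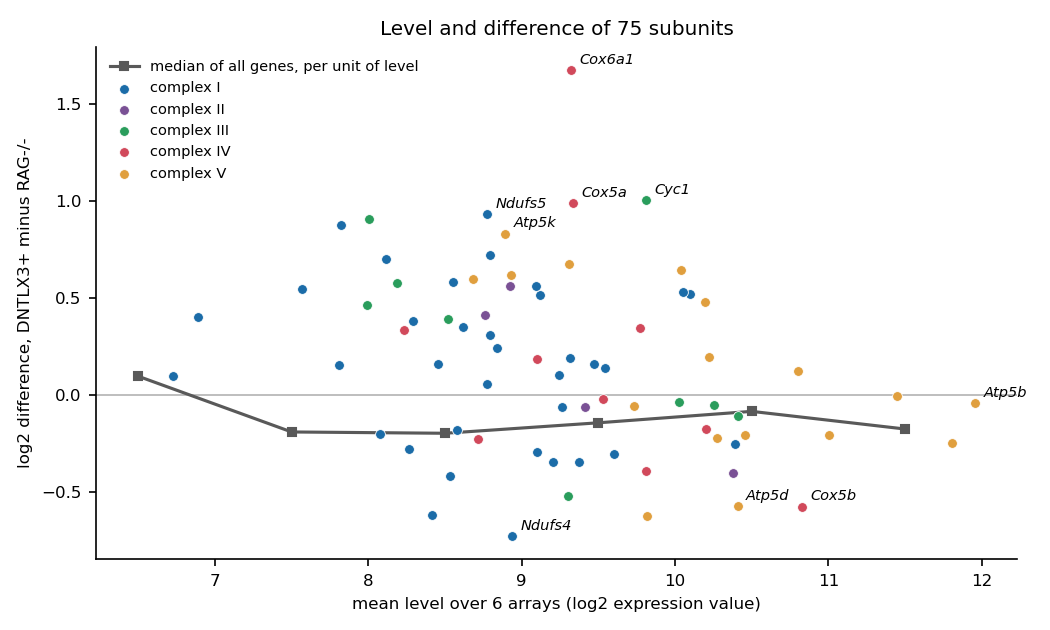
Log2 difference (vertical axis) against mean log2 expression value over the 6 arrays (horizontal axis) for the 75 subunits, coloured by complex, with the median of all genes per unit of level as a grey line. Above a level of 7 the grey line runs below 0, and subunits between 8 and 9 lie mostly above it.

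Within groups, single arrays shifted most subunits together. DNTLX3+ replicate 2 was the highest of its group for 63 of 75 subunits, and RAG-/- replicate 3 the lowest of its group for 62. The array weights, estimated over all tested probe sets, were 2.12, 1.97 and 1.31 for RAG-/- replicates 1, 2 and 3. For DNTLX3+ replicates 1, 2 and 3 they were 0.24, 0.62 and 1.23, so DNTLX3+ replicate 1 had the lowest weight. Relative to the RAG-/- mean, the median over subunits was 0.021, 0.090 and -0.11 on RAG-/- replicates 1, 2 and 3 and 0.021, 0.28 and 0.063 on DNTLX3+ replicates 1, 2 and 3. The groups therefore overlap in this median, with DNTLX3+ replicates 1 and 3 inside the RAG-/- range. Within complex III they did not: the medians were -0.0082, 0.090 and -0.078 against 0.33, 0.45 and 0.36. In complex I they were 0.011, 0.075 and -0.11 against 0.14, 0.23 and 0.11, likewise apart. The groups overlapped in complexes II, IV and V, in the last at 0.031, 0.11 and -0.11 against -0.10, 0.18 and 0.021. In single genes, 29 of the 75 subunits lay wholly higher and 13 wholly lower in DNTLX3+, 42 in all. Of all genes, 32.3% and 26% did (58.3% in either direction). Among genes above the median level, 22.2% lay wholly higher and 41.3% wholly lower (63.4% in either direction).

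**Figure D5:**
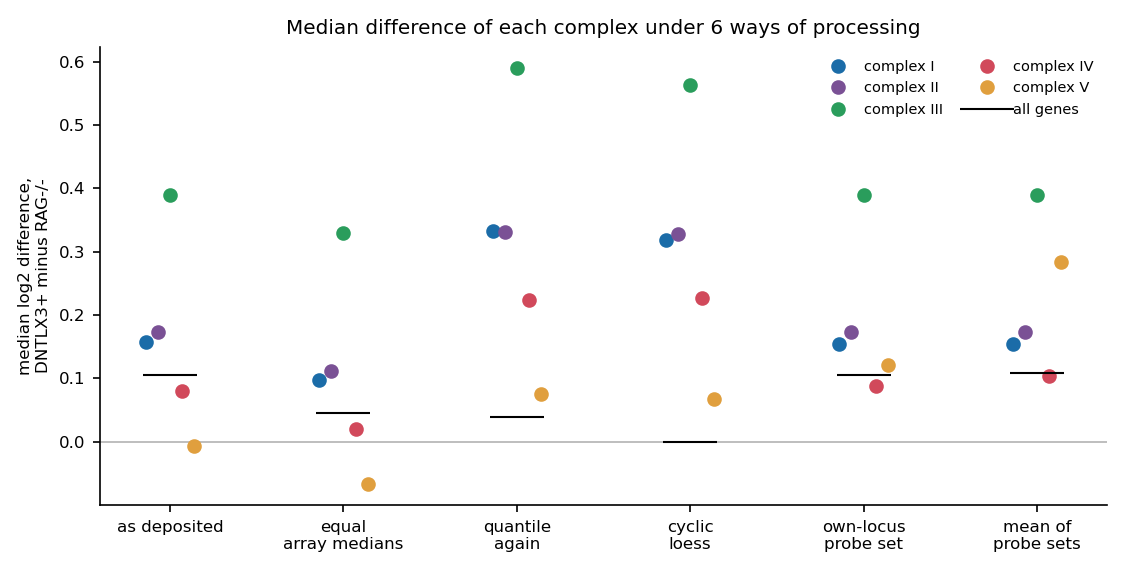
Median log2 difference (vertical axis) of each complex as deposited and under 5 other ways of processing (horizontal axis), with a black bar for the median of all genes. Complex III is highest in each, from 0.33 to 0.59, and complex V goes from -0.067 after equal medians to 0.28 with the average over each gene's probe sets.

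Genes around the complexes did not share 1 direction. Of 13 nuclear regulators of mitochondrial genes, 2 rose and 2 fell, with a median of -0.15: Ppargc1a, a coactivator of mitochondrial growth, rose by 0.69 from a level under the array medians, Myc rose from 10.4 ± 0.16 to 11.1 ± 0.33 (SD, n = 3; 0.64, limma adjusted p = 0.0197), and Nrf1 (-0.56) and Tfb2m, a factor for mitochondrial transcription (-0.68), fell. Of 12 measured enzymes of the citric acid cycle, Mdh2 rose (0.47), Idh3b fell (-0.58) and 10 did not pass, with a median of -0.081. Of 12 assembly factors of complex IV, Cox20 (0.74) and Cox10 (0.43) rose and Cox14 fell (-0.50). Of 13 assembly factors of complexes II, III and V, 2 rose and 4 fell. Uqcc2, which acts in the assembly of complex III, rose from 6.72 ± 0.20 to 7.87 ± 0.37 (1.16, adjusted p = 0.00221) and its partner Uqcc1 fell (-0.52), as did Uqcc3 (-0.69), Sdhaf2 (-0.44) and Atpaf2 (-0.46), while Sdhaf4 rose (0.60) from a level under the medians. Of 7 carriers, channels and inhibitors, the channel Vdac3 rose (0.49), Atpif1, the inhibitor of ATP synthase, fell (-0.54), and 5 did not pass. Of the 17 calls named here, those of Idh3b, Cox20, Uqcc2 and Uqcc3 held under every alternative run. The other 13 were lost in at least 1, with 10 lost without RAG-/- replicate 1, 10 without RAG-/- replicate 2 and 8 without RAG-/- replicate 3, the last including Myc (0.55).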

How the data were processed

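Total RNA was hybridised to 6 one-colour Affymetrix arrays, 3 per group. Each probe set has a deposited log2 value per array, which the authors made with RMA (background correction, quantile normalization, probe summary) in the affy package of R 2.9.0, as the submitters' processing notes state; no source used here gives the genome build. No counts underlie them, and 3 arrays a group limit the precision. The median within-group SD of a subunit was 0.12 in RAG-/- and 0.18 in DNTLX3+. Detection calls were not used here.

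The 6568 probe sets whose numbers precede the genome-ordered run carry no gene name and were left out. The other 28192 were tested with limma 3.58.1 (lmFit, eBayes, two-sided, no covariate) in R 4.3.3, with p-values adjusted by Benjamini-Hochberg over all of them. Genes were named from probe sets with 1 symbol (21640) and matched to a gene table and promoters of GRCm38.p6, where all 91 members were found. The fit was tested on simulated data. Fold changes undo the log2 scale. The members, lists and tests were chosen with earlier results of these data known. Values are given for the 3 largest calls per direction in each complex, its brightest and dimmest probe set, paralogs and redox or catalytic subunits; any others were picked with their values in view.

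No label says that the replicate numbers pair the arrays, so the main fit had no block. Alternatives were quantile normalization again, equal array medians, cyclic loess, a filter on probe sets under the median level, array weights, robust estimation with an intensity trend, a block for the replicate number, each gene's mean over probe sets, leaving out each array and, chosen after seeing the data, the own-locus probe set. Plots were drawn with matplotlib 3.10.9.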

Additional observations from a re-analysis of the deposited data

How the results depend on the processing

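Of the 24 rises and 7 falls among subunits, 14 rises (Ndufa10, Ndufa7, Ndufs6, Ndufa2, Ndufb10, Ndufs5, Uqcr11, Uqcrfs1, Cyc1, Cox5a, Cox6a1, Atp5g1, Atp5o and Atp5k) and 2 falls (Cox5b and Atp5d) kept their call under the 14 alternatives other than the own-locus probe set. Falls numbered 3 after a further quantile normalization (the quantile step) and 4 after cyclic loess, and 2 to 12 with an array left out: 3 without RAG-/- replicate 1, 2 without RAG-/- replicate 2, 12 without DNTLX3+ replicate 2 and 3 without DNTLX3+ replicate 3. Rises numbered 16 to 25 with an array left out, with 16 without RAG-/- replicate 1. Subunits higher by at least 1 numbered 7 after the quantile step, 6 after cyclic loess, 1 after equal medians, 1 with array weights and 1 to 4 with an array left out (1 without RAG-/- replicate 3 or DNTLX3+ replicate 2, 4 without DNTLX3+ replicate 3); 1 subunit, Ndufab1, was lower by at least 1 by the own-locus probe set, and none otherwise (limma; 7 fell without the minimum difference). The median of complex I was 0.33 after the quantile step and 0.32 after cyclic loess, and that of complex III 0.59 and 0.56, or 0.30 to 0.48 with an array left out. The median of complex V was 0.28 with the mean of probe sets. Over all genes the median was 0.11 as deposited, 0.039 after the quantile step and 0.00047 after cyclic loess, so that the subunits stood 0.050, 0.22 and 0.30 above it; they stood at -0.025 and -0.013 from it without DNTLX3+ replicate 2 and RAG-/- replicate 3. The cause of these shifts was not tested.

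Of the 75 subunits, 43 lay above 0 as deposited, 52 after the quantile step, 50 after cyclic loess and 49 without DNTLX3+ replicate 1. Signs changed in 9, 7 and 6 subunits under these 3 and in 5 or fewer under each other alternative alone. Among the named genes these were, by probe set, Ndufab1 (-0.28 with the mean, -1.28 at the own locus), Atp5md (0.14 at the own locus), Cox7b (-0.058 at the own locus), Cox6c (0.012 with the mean, 0.20 at the own locus) and Atp5g2 (1.11 with the mean, 1.30 at the own locus). The others lay near 0: Uqcrc2 (0.053 after cyclic loess), Uqcrh (0.036 and 0.081 after these steps, -0.19 to 0.044 with an array left out), Atp5b (0.076 after the quantile step, -0.084 to 0.023 with an array left out), Sdhd (0.063 after the quantile step, 0.078 after cyclic loess, -0.18 to 0.014), Atp5c1 (0.043 and 0.044 after these steps, 0.0047 with array weights, -0.054 to 0.041) and Cox7a2l (0.098 and 0.11 after these steps, 0.15 with the mean, -0.21 to 0.092). Without DNTLX3+ replicate 1, Uqcrh and the last 4 were above 0. Uqcrh, Atp5c1 and Cox7a2l were above 0 without RAG-/- replicate 1, Uqcrh without RAG-/- replicate 2, and Uqcrh and Cox7a2l without DNTLX3+ replicate 3.

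With the replicate number as a block, 23 subunits rose and 6 fell, of which 22 and 6 were among those called without it; Ndufb8 (adjusted p = 0.0758), Uqcrq (adjusted p = 0.062) and Ndufb9 lost their calls. The deviations of same-numbered arrays correlated at -0.11, 0.060 and -0.0017, and those of the other pairs at -0.15 to 0.12. With 3 arrays a group, these values cannot show whether same-numbered arrays share a mouse, day or batch. Signals under the array medians may be background, which limits the restricted isoforms.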
